A study of Mus musculus with 15 samples.

Results

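The ileum of mice colonized with 1 bacterial strain, Lacticaseibacillus rhamnosus GG (LGG), was compared with the ileum of germ-free mice that received phosphate-buffered saline (PBS). LGG is a lactic acid bacterium sold as a probiotic. Both groups were C57BL/6 mice raised without microbes. LGG mice were given 200 µl of an LGG suspension by gavage, PBS mice 200 µl of sterile PBS, and tissue was collected 21 days later. A further group of germ-free mice was given Ruminococcus gnavus (RG), a gut bacterium of the class Clostridia, and is used here only to ask whether LGG also differed from it. Each of the 3 groups held 5 mice with 1 library each, so a replicate was an animal. Per the labels, colonization was checked by PCR on fecal DNA. The labels gave no age, sex, cage, batch or hour of collection. A mouse with a single bacterial strain is a model of that strain alone and not of a whole microbiota.

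Transcript levels were given as TPM, a unit of transcript abundance scaled by transcript length and by library. The table listed 4178 genes, and all 3530 with at least 1 TPM in 5 or more of the 15 libraries were tested, with the 5 LGG libraries set against the 5 PBS libraries. The other 648 did not reach this level. Differences are LGG minus PBS on the log2(TPM + 1) scale, tested with limma over all 3530 genes at a Benjamini-Hochberg adjusted p under 0.05. The standard error (SE) is that of the log2 difference, with n = 5 mice in each group. This scale understates the change of genes with low TPM. The ileum was sampled as whole tissue, so fewer cells of a type and less RNA per cell cannot be told apart.

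The ileal lining renews itself from crypts. Paneth cells at the crypt base secrete lysozyme and alpha-defensins, which act on bacteria in the lumen, and goblet cells secrete mucus. Absorptive enterocytes cover the villi, where their brush border of microvilli carries enzymes that finish the digestion of sugars, peptides and lipids beside the transporters that take up the products. Lactase and several other brush border genes are highest upstream of the ileum, while genes such as Car1 and Aqp8 mark the large intestine.

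With LGG, 1932 genes rose, 54.7% of those tested, and 582 fell, 16.5%, so that 71.2% changed. The 1016 others did not pass, and 2567 genes had an unadjusted p under 0.05. Every count of genes below is to be read against these shares, since most listed genes rose. The median difference of all genes tested was 1.17. Median-of-ratios scaling gave 0.40, a shift of -0.77, and upper-quartile scaling 0.30, a shift of -0.87. On these scales 49.0% and 40.8% of genes were higher and 39.4% and 39.3% lower. The listed genes took 50.1% ± 1.97 of all TPM in LGG and 63.8% ± 2.96 in PBS (SD, n = 5 each, two-sided exact permutation p = 0.00794, the smallest that 252 splits allow). Without the alpha-defensins this share was 47.3 to 51.4% in LGG mice and 47.5 to 53.5% in PBS mice, and the groups overlapped.

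The differences formed 2 separate groups of genes, as the histogram of all genes shows. Only 107 genes (3.03%) had a difference between 0.15 and 0.90 on the log2 scale, while 987 lay in the window of the same width just below and 1550 in that just above. This window was picked as the emptiest of its width, 0.75, within the central part of the differences. The emptiest window, sought anew, held 107 genes (-0.55 to 0.20) with median-of-ratios scaling and 137 genes (0.10 to 0.85) without LGG mouse 4. Because each was sought as the emptiest, these counts do not test a gap fixed beforehand. LGG minus RG split less clearly, as its emptiest window of this width (-0.05 to 0.70) held 545 genes (15.4%). That of RG minus PBS (-0.40 to 0.35) held 1300 genes (36.8%). In narrower bins of 0.25, LGG minus RG had 45 genes between 0.25 and 0.50, against 490 between -0.25 and 0 and 882 between 0.75 and 1.00. For RG minus PBS 308 genes lay between 0 and 0.25, against 422 in the bin below and 994 in the bin above. How the listed genes were chosen is not given in the sources used here, so the shares above describe the listed genes and not the genome.

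**Figure D1:**
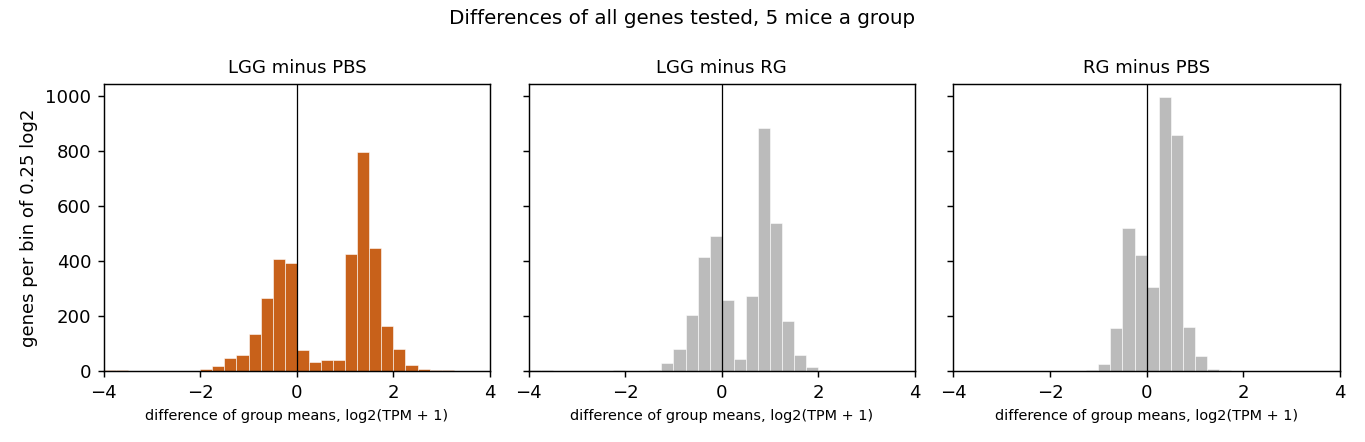
Number of genes (y axis) per bin of 0.25 in the difference of group means on the log2(TPM + 1) scale (x axis), for LGG minus PBS (left), LGG minus RG (middle) and RG minus PBS (right), over the 3530 genes tested, with the few genes beyond -4 or 4 left out of view. For LGG minus PBS few genes lie between 0.15 and 0.90, between a group centred below 0 and one centred above 1, and for LGG minus RG few lie between 0.25 and 0.50.

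The libraries of 3 mice stood apart in ways their labels do not give. LGG mouse 4 had the large-intestinal genes Car1 at 25134 TPM and Aqp8 at 283 TPM, and LGG mouse 5 was next among LGG mice at 2549 and 19.7 TPM. LGG mouse 2 had Gata4, a transcription factor of the upper small intestine that was not among the genes tested, at 33.7 TPM, against 2.92, 1.29, 0.353 and 0.503 TPM in LGG mice 1, 3, 4 and 5 and 0.0881 to 0.366 TPM in PBS mice. PBS mouse 1 had the highest values of all PBS mice for Alb (556 TPM), Tagln (1306 TPM) and Spink4 (6487 TPM), genes of liver, smooth muscle and goblet cells. Cubn, an ileal enterocyte gene, was at 101 to 128 TPM in LGG mice and 20.8 to 25.8 TPM in PBS mice, while the ileal markers Slc10a2 and Fabp6 were not analysed here. Without these 3 libraries 1942 genes rose and 353 fell, with a median of 1.14. The place along the ileum from which each sample came is not given in the labels, and its part in the results was not tested.

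Paneth cell transcripts had the lowest medians of the gene lists examined. Of 27 alpha-defensins, 26 fell and 1 rose, with a median of -3.93, against 1.17 for all genes tested. In 24 of them every LGG mouse lay below every PBS mouse, as in 14.9% of all genes. Of 11 other Paneth cell products 9 fell and none rose, with a median of -1.95. On the median-of-ratios and upper-quartile scales 26 alpha-defensins and all 11 other products were lower. With the trend on transcript length and GC content removed, 24.3% of all genes were lower. There 25 alpha-defensins and 7 other products were lower, with medians of -2.74 and -2.35. Transcripts of these lists were short, with median lengths of 411 and 829 bases. Among the 882 genes with the shortest transcripts (180 to 1613 bases) 50.8% were lower. Without LGG mice 2 and 4 and PBS mouse 1, 26 alpha-defensins and 9 other products were lower.

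Lyz1 (chromosome 10, 117287797 to 117292868 on GRCm38) encodes the lysozyme that Paneth cells secrete. It was at 1063, 1587, 664, 162 and 353 TPM in LGG mice 1 to 5, against 5234, 8589.8, 6841, 7319 and 7992 TPM in PBS mice 1 to 5. No LGG mouse reached the PBS range, and LGG mouse 4 was the lowest (log2 difference -3.62, SE 0.48, adjusted p = 4.85e-06). Mmp7 encodes matrilysin, the protease that activates alpha-defensins in the mouse, and was at 70.5, 72.2, 52.2, 15.1 and 29.3 TPM in LGG mice 1 to 5, against 320.0, 370.2, 401, 358 and 371 TPM in PBS mice 1 to 5. The groups were again apart, with the lowest values in LGG mice 4 and 5 (log2 difference -3.10, SE 0.35, adjusted p = 1.25e-06). Ang4, a ribonuclease that kills bacteria, had 85.8, 222, 109, 16.9 and 32.5 TPM in LGG mice 1 to 5, against 4409, 1235, 1124, 974 and 1123 TPM in PBS mice 1 to 5. PBS mouse 1 was the highest, and without it and LGG mice 2 and 4 the difference was -4.02 (adjusted p = 1.06e-06), against -4.47 with all mice. Mptx2, a mucosal pentraxin of Paneth cells, fell by 4.23, and Clps, the cofactor of pancreatic lipase that Paneth cells also make, fell by 2.92. Of the list, the pentraxin Mptx1 (-0.75, adjusted p = 0.148) and Copz2 (-0.52, adjusted p = 0.111), a coat protein of transport vesicles, did not pass, and their groups overlapped.

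Mouse alpha-defensins are encoded by a cluster of near-identical genes on chromosome 8, so single values are uncertain where reads could be shared between copies. They are small peptides that break bacterial membranes. Together they took 1.49, 2.82, 0.997, 0.217 and 0.428% of all TPM in LGG mice 1 to 5, against 10.6, 11.03, 12.6, 11.96 and 14.8% in PBS mice 1 to 5. The highest LGG mouse, mouse 2, was thus below the lowest PBS mouse. Their sum was 2165 to 28207 TPM in LGG mice, against 111200.0 to 146430.0 TPM in RG mice, and 26 of 27 were lower in LGG than in RG, where 8.19% of all genes tested were lower and 53.5% higher.

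The stretches before the annotated starts of 5 alpha-defensin genes are shown because the members moved together and because Defa23 and Defa31 have the same upstream sequence. They come from RefSeq (GRCm38.p6), cover the 150 bases before the start, read 5′ to 3′ on the gene's strand, and have in capitals ATCAAAG, a form of the site read by TCF/LEF factors of the Wnt pathway, and TATAAA, the core promoter box.
Defa2 (chr8:21378367-21378516, plus strand): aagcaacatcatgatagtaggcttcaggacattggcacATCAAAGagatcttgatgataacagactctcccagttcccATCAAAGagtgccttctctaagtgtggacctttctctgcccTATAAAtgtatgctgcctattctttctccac
Defa23 (chr8:21054890-21055039, plus strand): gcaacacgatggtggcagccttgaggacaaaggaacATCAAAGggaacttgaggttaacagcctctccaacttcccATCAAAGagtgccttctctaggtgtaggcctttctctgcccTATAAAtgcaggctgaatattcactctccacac
Defa31 (chr8:21191423-21191572, plus strand): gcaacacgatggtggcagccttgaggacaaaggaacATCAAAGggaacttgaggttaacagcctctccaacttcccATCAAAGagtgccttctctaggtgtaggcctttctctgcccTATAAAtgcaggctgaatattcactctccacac
Defa30 (chr8:21134500-21134649, plus strand): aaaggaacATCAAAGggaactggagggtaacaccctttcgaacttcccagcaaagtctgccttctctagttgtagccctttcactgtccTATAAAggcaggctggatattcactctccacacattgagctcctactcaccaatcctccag
Defa43 (chr8:21594466-21594615, minus strand): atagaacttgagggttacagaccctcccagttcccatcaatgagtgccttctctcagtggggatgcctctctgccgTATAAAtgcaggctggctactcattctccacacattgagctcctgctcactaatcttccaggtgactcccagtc

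ATCAAAG was searched on both strands of these 150 bases, and it was present in 13 of the 16 alpha-defensins with a RefSeq promoter in the table and in 1.80% of all 32851 promoters. In Defa2 it began at -112 and -72, counted back from -1 next to the start, and in Defa23 at -114 and -74. TATAAA was present in 15 of the 16 and in 7.57% of all promoters. It began at -31 in Defa2, -33 in Defa23 and Defa31, -61 in Defa30 and -74 in Defa43. The window of Defa43 thus reached less far before this box, and bases further upstream were not searched. The alpha-defensins without ATCAAAG in this window, named for that reason after their values were seen, were Defa38 (-3.55), Defa42 (-3.23) and Defa43. Defa43 had the smallest decrease of the 26 that fell (log2 difference -1.26, SE 0.49, adjusted p = 0.0311), and its groups overlapped, at 224, 517, 137, 39.9 and 71.3 TPM in LGG mice 1 to 5, against 389, 321, 198, 369 and 406 TPM in PBS mice 1 to 5. LGG mouse 2 was the highest of all 10 mice in Defa43, and the call was lost without LGG mouse 4, LGG mouse 5 or any of PBS mice 1, 4 and 5 (adjusted p = 0.0794, 0.0779, 0.0544, 0.0548 and 0.0589). A match describes these letters only, and binding was not measured.

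The printed bases before Defa23 and Defa31 are identical, as are all 300 in the table for these genes, and their values moved in opposite directions. Defa31 was at 712, 1078, 922, 184 and 343 TPM in LGG mice 1 to 5, against 56.5 TPM in PBS mouse 4, and it was listed at 0 in the other PBS mice. On the log2(TPM + 1) scale this was the largest increase of all genes (7.90). Defa23 was at 282, 1033, 272, 33.7 and 106 TPM in LGG mice 1 to 5, against 4920.3, 4837, 4317, 3892 and 4797 TPM in PBS mice 1 to 5 (-4.52). Their sum was 994, 2112, 1194, 217 and 449 TPM in LGG mice 1 to 5, against 4920.3, 4837, 4317, 3949 and 4797 TPM in PBS mice 1 to 5, with no overlap between the groups. How the counting shared reads between the copies is not given in the sources used here.

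Defa30, shown with Defa23 in the plot of 16 genes by mouse and one of the most abundant alpha-defensins of PBS mice, was at 1277, 2018, 926, 176 and 364 TPM in LGG mice 1 to 5, against 12615, 10047, 12879.9, 11886 and 14536 TPM in PBS mice 1 to 5. All LGG mice were below all PBS mice (log2 difference -4.16, SE 0.47, adjusted p = 1.25e-06). The largest decreases were those of Defa41 (-5.97), at 3.43 to 53.05 TPM in LGG mice and 535 to 994 TPM in PBS mice, and of Defa36 (-5.80), listed at 0 in LGG mouse 4. Smaller ones were those of Defa17 (-3.73), Defa27 (-3.50) and Defa28 (-3.58), and Defa3, Defa32 and Defa33 lay between (-4.94, -4.57 and -4.68). Defa2 and Defa20, whose 150 bases before the start are identical, had differences of -4.08 and -3.98. Defa39, chosen after its values were seen, was at 14.6 to 725 TPM in LGG mice and 626 to 1088 TPM in PBS mice, where LGG mouse 2 lay inside the PBS range.

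**Figure D2:**
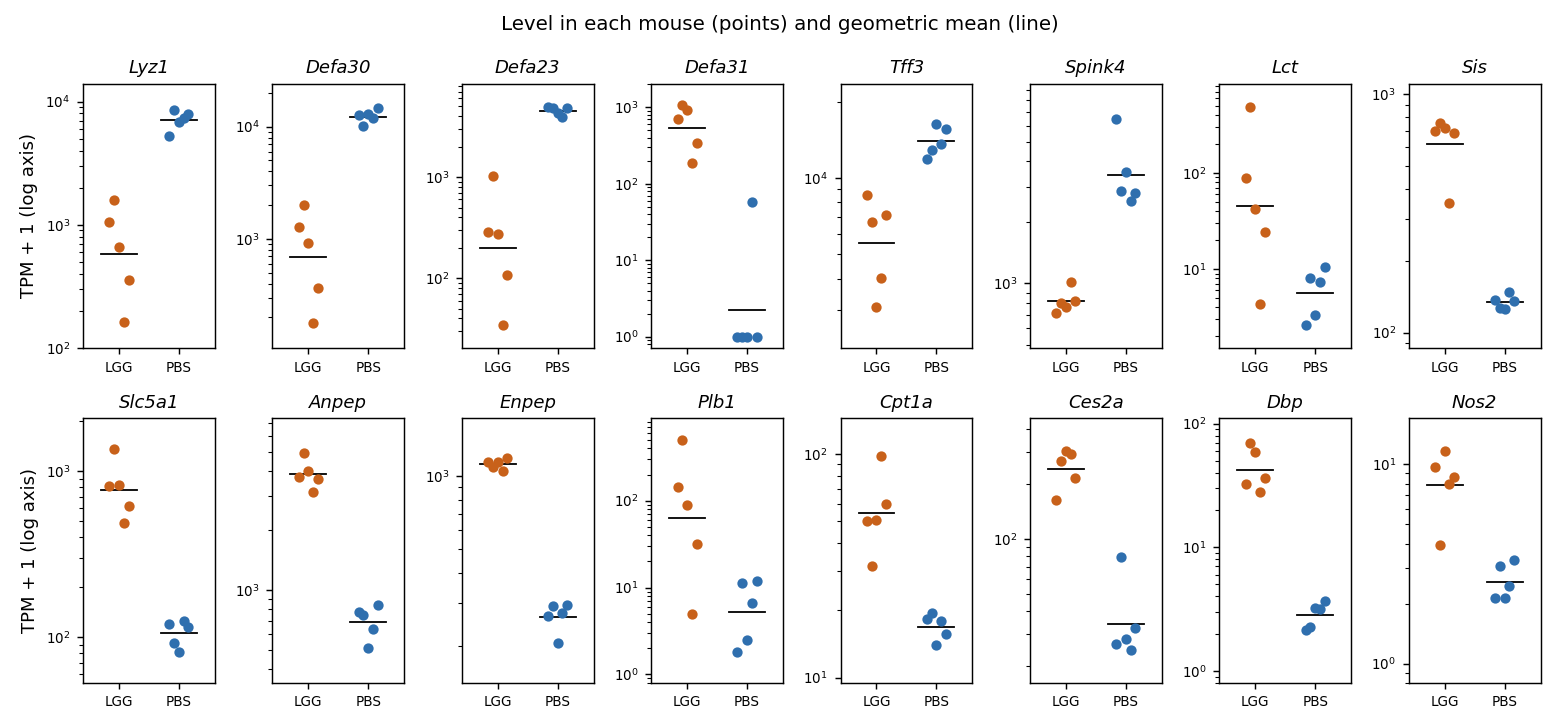
TPM + 1 on log axes (y) in each of 5 LGG mice (left, orange) and 5 PBS mice (right, blue) for 16 genes, with the geometric mean as a line. Lyz1, Defa30, Defa23, Tff3 and Spink4 are lower in every LGG mouse, while Lct and Plb1 overlap between the groups in LGG mouse 4.

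Goblet cell transcripts were also lower. All 6 tested members of the goblet cell list fell, with a median of -1.37, and all were lower on both other scalings. Muc2, the main mucin of the mucus gel, was not analysed here. Tff3, a trefoil peptide that goblet cells release with mucus, was at 8540.1, 6686, 3076, 4031 and 7134 TPM in LGG mice 1 to 5, against 11859.7, 12914, 16268, 13608 and 15563 TPM in PBS mice 1 to 5, and every LGG mouse was below every PBS mouse (log2 difference -1.34, SE 0.26, adjusted p = 1.90e-04). Spink4, a small protease inhibitor of goblet cells, had 714, 801, 762, 1019.8 and 815 TPM in LGG mice 1 to 5, against 6487, 2845, 3555, 2538 and 2794 TPM in PBS mice 1 to 5. Its LGG values lay close together and far below those of PBS mice (log2 difference -2.06, SE 0.21, adjusted p = 4.06e-07), and it was also lower than in RG (-1.42, adjusted p = 5.58e-05). Agr2, which helps to fold mucin, fell by 1.57, and the chemokine genes Ccl9 and Ccl6 fell by 1.39 and 1.34. S100a6, a calcium-binding protein, fell by 0.67, but its groups overlapped and the call was lost without LGG mouse 1, LGG mouse 2 or PBS mouse 1 (adjusted p = 0.0570, 0.0962 and 0.0994).

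The machinery of the endoplasmic reticulum, through which secreted proteins enter and fold, split in 2 directions. Of 26 tested members 16 rose and 9 fell, and 6 fell without LGG mice 2 and 4 and PBS mouse 1. The chaperone BiP, encoded by Hspa5, was at 428, 486, 331, 350.1 and 351 TPM in LGG mice 1 to 5, against 146, 160.5, 64.1, 98.96 and 111 TPM in PBS mice 1 to 5, and all LGG mice were above all PBS mice (log2 difference 1.79, SE 0.25, adjusted p = 5.42e-06). Hsp90b1, Calr and Sel1l, which serve protein folding and the removal of misfolded proteins, rose by 1.79, 1.85 and 1.73. In contrast Fkbp11, a folding enzyme of secretory cells, fell by 1.80, and the translocon-associated protein Ssr4 fell by 0.80. The 3 subunits of the Sec61 channel did not move together. Sec61a1, which forms the pore and was chosen after its values were seen, rose by 1.80, whereas the small subunits Sec61b and Sec61g fell by 0.65 and 1.56. Sec61b was at 327, 299, 301, 276 and 329 TPM in LGG mice 1 to 5, against 584, 431, 509.5, 441 and 455 TPM in PBS mice 1 to 5. Its groups did not overlap, but with the trend on transcript length and GC content removed it no longer passed, at 0.10 (adjusted p = 0.307).

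Genes for digestion and uptake at the brush border rose together. All 13 tested genes for sugars, all 21 for peptides and amino acids and all 17 for lipids were higher, with medians of 2.27, 2.17 and 1.90. In 11, 20 and 14 of them every LGG mouse was above every PBS mouse, as in 53.0% of all genes. The counts of genes that rose were the same without LGG mice 2 and 4 and PBS mouse 1, and 13, 20 and 16 were higher with median-of-ratios scaling. With the trend on transcript length and GC content removed, where 27.3% of genes were higher and 24.3% lower, 10, 18 and 10 were higher and none lower. Against RG, 12, 20 and 16 were higher in LGG.

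Slc5a1 (chromosome 5, 33104219 to 33162870) encodes SGLT1, which brings glucose in with sodium. It was at 819, 1358, 821, 486 and 618 TPM in LGG mice 1 to 5, against 119, 91.4, 80.6, 124 and 114 TPM in PBS mice 1 to 5. The lowest LGG mouse, mouse 4, was above every PBS mouse (log2 difference 2.87, SE 0.23, adjusted p = 6.53e-08). Sis encodes sucrase-isomaltase, which splits sucrose and the ends of starch, and had 697, 759, 722, 349 and 688 TPM in LGG mice 1 to 5, against 136, 126, 124, 147 and 135 TPM in PBS mice 1 to 5. LGG mouse 4 was again the lowest of its group and still above the PBS mice (log2 difference 2.21, SE 0.26, adjusted p = 1.03e-06). Mgam and Treh, which split maltose and trehalose, rose by 2.27 and 1.95. The fructose transporter Slc2a5 was at 81.7, 112, 113, 28.1 and 82.2 TPM in LGG mice 1 to 5, against 3.94, 6.44, 7.08, 28.01 and 9.34 TPM in PBS mice 1 to 5, and LGG mouse 4 and PBS mouse 4 were nearly level (2.96). Slc5a4a, of the sodium-glucose transporter family, rose by 3.24.

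Lactase, encoded by Lct (chromosome 1, 128284756 to 128328318), had the largest standard error among the sugar genes. It was at 87.5, 489, 41.6, 3.32 and 23.3 TPM in LGG mice 1 to 5, against 1.61, 7.11, 2.33, 6.31 and 9.49 TPM in PBS mice 1 to 5. LGG mouse 2 held the highest value and LGG mouse 4 lay inside the PBS range, so the groups overlapped although the gene passed (log2 difference 3.03, SE 0.94, adjusted p = 0.00890). The difference was 2.17 without LGG mouse 2, 3.88 without LGG mouse 4 and 2.74 without LGG mice 2 and 4 and PBS mouse 1 (adjusted p = 0.0190, 2.07e-04 and 0.00178), and it did not pass against RG (1.85, adjusted p = 0.103). With the length and GC trend removed it was 1.73 and did not pass (adjusted p = 0.179).

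The upstream sequences of Lct and Sis are shown because these genes rose together and are textbook targets of the intestinal factor Cdx2. The capitals mark TTTATG, a form of the Cdx site, or its reverse complement CATAAA.
Lct (chr1:128328319-128328468, minus strand): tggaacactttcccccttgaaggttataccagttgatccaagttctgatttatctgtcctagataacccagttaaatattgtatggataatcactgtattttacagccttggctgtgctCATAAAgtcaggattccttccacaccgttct
Sis (chr3:72967864-72968013, minus strand): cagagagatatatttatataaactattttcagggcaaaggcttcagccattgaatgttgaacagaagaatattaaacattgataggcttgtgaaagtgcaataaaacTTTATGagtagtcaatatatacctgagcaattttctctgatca

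Searched on both strands of the 150 bases, TTTATG was present in 6.33% of all promoters. It was in 2 of the 11 sugar genes with a promoter in the table, Lct and Sis, and in none of the 18 peptide and 13 lipid genes with one. In Lct the match began at -31, the place of the core promoter box TATAAA in Defa2, and in Sis at -43. Whether it is a Cdx site or a core promoter box in Lct was not tested, and binding was not measured.

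Among the peptidases, aminopeptidase N, encoded by Anpep (chromosome 7, 79821803 to 79861059), was at 3725, 4921, 3995, 3138 and 3630.1 TPM in LGG mice 1 to 5, against 778, 751, 508, 637 and 836 TPM in PBS mice 1 to 5. Enpep, which removes acidic residues from the start of peptides, was at 1141, 1086, 1144, 1046 and 1183 TPM in LGG mice 1 to 5, against 265, 291, 205, 273 and 294 TPM in PBS mice 1 to 5. Both sets of LGG values lay well above those of PBS mice, and the LGG values of Enpep were within a narrow range (log2 difference 2.47, SE 0.16, adjusted p = 1.94e-08 for Anpep, log2 difference 2.08, SE 0.13, adjusted p = 1.58e-08 for Enpep). Dpp4, Naaladl1 and the neutral amino acid transporter Slc6a19 rose by 2.33, 2.19 and 2.13. Ace, the angiotensin-converting enzyme of the brush border, was at 249.5, 865, 267, 99.5 and 133 TPM in LGG mice 1 to 5, against 30.1, 38.1, 19.2, 27.5 and 41.04 TPM in PBS mice 1 to 5. LGG mouse 2 stood above the others, and without it the difference was 2.48 (adjusted p = 1.43e-06), against 2.94 with all mice.

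The lipid genes with the largest changes were enzymes that act on the outer face of the enterocyte. Plb1, a phospholipase, was at 145, 500.1, 88.9, 4.00 and 30.9 TPM in LGG mice 1 to 5, against 0.791, 10.2, 1.48, 5.59 and 11.001 TPM in PBS mice 1 to 5. As for Lct, LGG mouse 2 was the highest and LGG mouse 4 lay inside the PBS range (log2 difference 3.60, SE 1.00, adjusted p = 0.00403). Enpp7, which splits sphingomyelin, and Asah2, a neutral ceramidase, rose by 3.22 and 2.82, and each LGG mouse was above all PBS mice. Fam151a, whose function is not well described, rose by 3.08 with overlap in LGG mouse 4. Genes that act inside the cell, among those named, had smaller differences. Apob, the scaffold of chylomicrons, was at 359, 311, 405, 296 and 285 TPM in LGG mice 1 to 5, against 66.5, 88.98, 55.7, 63.6 and 71.3 TPM in PBS mice 1 to 5, with no overlap (log2 difference 2.25, SE 0.19, adjusted p = 9.51e-08). The fatty acid handling genes Slc27a4 and Acsl5 rose by 1.81 and 2.08, the phospholipid-remodelling enzyme Lpcat3 by 1.88, and Creb3l3, a transcription factor of lipid metabolism, by 1.76.

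Genes for the structure of the brush border and for the junctions between cells were higher as well. Of 24 microvillus genes 23 rose, of 19 junction and adhesion genes 19, and of 17 genes that build the sugar coat of mucins 16. Their medians were 1.81, 1.68 and 1.46, and 54.7% of all genes rose. Their transcripts were long (medians of 3802, 3623 and 4108 bases), and among all genes of 2779 to 4205 bases 73.3% were higher. With the length and GC trend removed 16, 15 and 11 were higher and none lower, with medians of 0.52, 0.54 and 0.39, against 27.3% of all genes higher. Villin, the actin bundler encoded by Vil1, was at 1387, 1489.9, 1443, 1479 and 1429.8 TPM in LGG mice 1 to 5, against 331, 324, 268, 334 and 371 TPM in PBS mice 1 to 5. Ezrin, which ties the membrane to actin and is encoded by Ezr, was at 959, 918, 966, 1016 and 866 TPM in LGG mice 1 to 5, against 215, 195, 175, 234 and 268 TPM in PBS mice 1 to 5. For both the 5 LGG values were close to each other and far above the highest PBS value (log2 difference 2.15, SE 0.13, adjusted p = 1.55e-08 for Vil1, log2 difference 2.13, SE 0.13, adjusted p = 1.55e-08 for Ezr). Cdhr2, a cadherin that links the tips of microvilli, and the bundler Pls1 rose by 2.23 and 1.98. Calml4, a light chain of the tip-link complex that was chosen after its values were seen, did not rise. It was at 465, 502, 418, 302 and 437 TPM in LGG mice 1 to 5, against 654, 505, 640.0, 517 and 588 TPM in PBS mice 1 to 5, so that each LGG mouse was below each PBS mouse, and it missed the threshold (log2 difference -0.46, SE 0.21, adjusted p = 0.0552), while it passed as lower on median-of-ratios scaling (-1.33, adjusted p = 3.74e-04).

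Cdh1, the E-cadherin of adherens junctions, was at 293, 300.1, 329, 471 and 315 TPM in LGG mice 1 to 5, against 108, 79.9, 42.6, 63.3 and 65.4 TPM in PBS mice 1 to 5. LGG mouse 4 was the highest, and no LGG mouse was near the PBS range (log2 difference 2.28, SE 0.21, adjusted p = 1.92e-07). Cdh17, an intestinal cadherin, and the desmosome protein Pkp3 rose by 2.23 and 1.75. The membrane mucins Muc13 and Muc3, which stay anchored on the enterocyte surface, rose by 2.16 and 1.46, and the glycosyltransferases Mgat3 and Mgat4a by 1.65 and 1.71. Of the markers of villus tip cells 6 of 7 rose, among them the keratin Krt20 (1.85), at 2618 to 2828 TPM in LGG mice and 563 to 1022 TPM in PBS mice. On the upper-quartile scale, as after removal of the length and GC trend, 3 of them were higher. The intestinal alkaline phosphatase Alpi, of the list of genes of the upper small intestine, rose by 2.33.

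Transporters of salt, acid and metals rose in most cases, as the plot of list members shows beside the other lists. Of 18 salt and acid-base genes 16 rose, and all 10 tested genes for iron, copper and zinc rose (medians 1.77 and 1.64). After removal of the length and GC trend 11 and 6 were higher. Atp1b1, a beta subunit of the sodium pump, was at 1132, 1429, 1209.8, 1486 and 1210.4 TPM in LGG mice 1 to 5, against 328, 296, 188, 274 and 269.8 TPM in PBS mice 1 to 5. No LGG mouse was near the PBS range (log2 difference 2.27, SE 0.18, adjusted p = 5.07e-08). The anion exchanger Slc26a6 and the guanylin receptor Gucy2c, which controls fluid secretion, rose by 2.12 and 2.14. The zinc importer Slc39a4 was at 215, 202, 271, 286 and 231 TPM in LGG mice 1 to 5, against 51.4, 56.3, 34.1, 39.8 and 43.98 TPM in PBS mice 1 to 5, with no overlap (log2 difference 2.40, SE 0.20, adjusted p = 6.87e-08). Heph, which oxidizes iron for export to blood, rose by 2.14, and the metal-binding protein Mt2 by 1.76, highest in LGG mice 4 and 5.

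**Figure D3:**
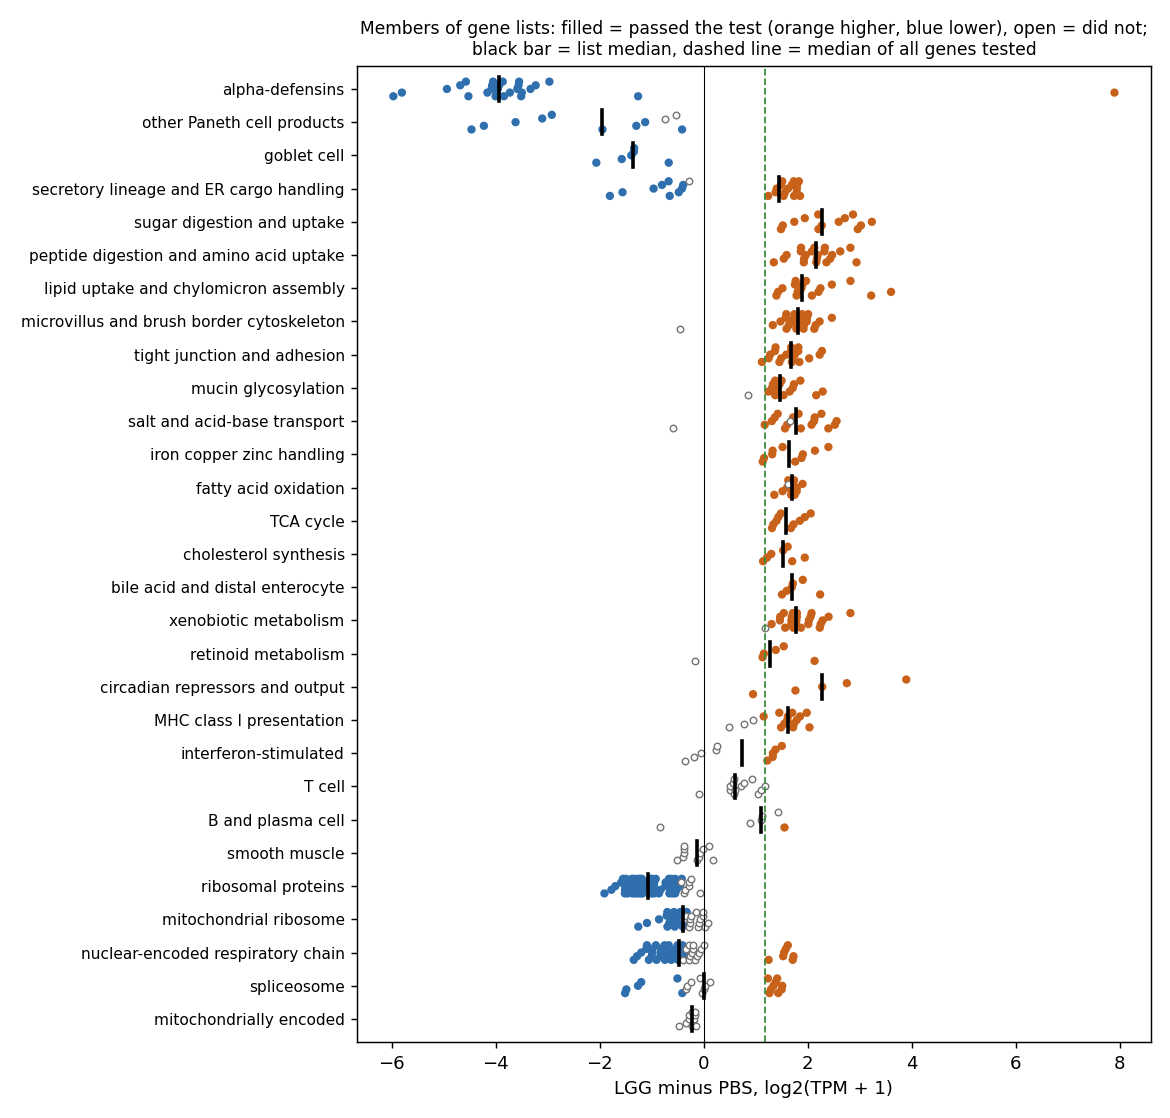
Difference LGG minus PBS on the log2(TPM + 1) scale (x axis) of each tested member of 29 gene lists (rows), filled where the test passed (orange higher, blue lower) and open where it did not, with list medians as black bars. The alpha-defensins lie near -4 apart from Defa31 at 7.90, the medians of the digestive lists lie to the right of the median of all genes (dashed, 1.17), and T cell and smooth muscle genes have no filled points.

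Energy and lipid metabolism genes rose in most of their members. All 10 tested genes of the TCA cycle, 13 of 14 for fatty acid oxidation and all 7 for cholesterol synthesis and uptake were higher (medians 1.58, 1.70 and 1.53). Cpt1a, which admits fatty acids to mitochondria, was at 49.3, 30.5, 49.5, 97.4 and 59.1 TPM in LGG mice 1 to 5, against 17.3, 18.4, 12.9, 16.9 and 14.6 TPM in PBS mice 1 to 5. LGG mouse 4 was the highest and LGG mouse 2 the lowest of its group, and both were above PBS mice (log2 difference 1.68, SE 0.24, adjusted p = 6.33e-06). Cpt2 rose by 1.71, and the peroxisomal genes Ehhadh, Acaa1a and Abcd3 by 1.75, 1.90 and 1.71. In the TCA cycle Ogdh was at 259, 324, 261, 308 and 246 TPM in LGG mice 1 to 5, against 66.9, 64.8, 50.1, 77.5 and 73.7 TPM in PBS mice 1 to 5, without overlap (log2 difference 2.06, SE 0.15, adjusted p = 3.33e-08), and citrate synthase, Cs, rose by 1.44. Srebf2, a transcription factor that switches on genes of cholesterol synthesis, was at 64.7, 48.7, 56.4, 109 and 74.4 TPM in LGG mice 1 to 5, against 34.9, 25.3, 19.5, 30.8 and 26.8 TPM in PBS mice 1 to 5. The groups did not overlap, and LGG mouse 4 was the highest (log2 difference 1.30, SE 0.23, adjusted p = 5.73e-05). After removal of the length and GC trend 8 TCA cycle, 11 fatty acid oxidation and 2 cholesterol genes were higher. Srebf2 was then at -0.11 (adjusted p = 0.538).

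Genes that handle bile acids, foreign compounds and retinoids were also mostly higher. All 6 tested bile acid and distal enterocyte genes rose, 24 of 25 for xenobiotics, and 5 of 6 for retinoids. After taking out the length and GC trend 3 bile acid genes and 19 for xenobiotics were higher. In this setting 2 retinoid genes were higher and 2 lower. On the median-of-ratios and upper-quartile scales 3 and 1 retinoid genes were higher. Slc51a, which exports bile acids towards blood, was at 839, 485, 1122, 739 and 921 TPM in LGG mice 1 to 5, against 230.4, 338, 182, 233 and 242 TPM in PBS mice 1 to 5, and Cubn, the receptor for vitamin B12 with intrinsic factor, rose by 2.24. The nuclear receptor PXR, encoded by Nr1i2, rose by 1.51. Ces2a, a carboxylesterase, was at 162, 268, 302, 291 and 214 TPM in LGG mice 1 to 5, against 25.4, 78.8, 27.3, 23.4 and 31.3 TPM in PBS mice 1 to 5. PBS mouse 2 was the highest of its group and was below all LGG mice (log2 difference 2.82, SE 0.36, adjusted p = 3.20e-06). Cyp3a13, Cyp2d26 and Fmo5 rose by 2.23, 2.02 and 1.78. Cyp3a11, a textbook PXR target, passed at 1.47 (adjusted p = 0.0289) with overlapping groups, and its call was lost without LGG mouse 2 or 3 or PBS mouse 3 or 4 (adjusted p = 0.0760, 0.0561, 0.0516 and 0.0683). Cyp2c55 did not pass (1.19, adjusted p = 0.333), with LGG mouse 4 at 1836 TPM and LGG mouse 1 at 17.9 TPM. Of the retinoid genes, Retsat rose by 2.13, Aldh1a1, which makes retinoic acid, by 1.54, Adh1 by 1.13 and the receptor gene Rara by 1.16. Rara was lower with the length and GC trend removed (-0.24, adjusted p = 0.0159).

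The circadian clock runs on activators that switch on their own repressors each day, so the level of its outputs depends on the hour. All 5 tested repressor and output genes rose, with a median of 2.28, and all 5 were higher than in RG too. Dbp, a transcription factor driven directly by the clock (chromosome 7, 45705088 to 45710203), was at 31.4, 68.4, 57.9, 27.03 and 35.4 TPM in LGG mice 1 to 5, against 1.15, 1.26, 2.23, 2.18 and 2.68 TPM in PBS mice 1 to 5. Every LGG mouse was above every PBS mouse, and the difference was the second largest increase of all genes (log2 difference 3.90, SE 0.28, adjusted p = 2.84e-08). Nr1d1, the repressor REV-ERB alpha, was at 73.2, 80.8, 93.6, 118 and 82.04 TPM in LGG mice 1 to 5, against 6.37, 8.67, 14.3, 17.98 and 18.5 TPM in PBS mice 1 to 5. Here too the groups were far apart (log2 difference 2.75, SE 0.26, adjusted p = 2.14e-07). Tef, Nr1d2 and Ciart rose by 2.28, 1.77 and 0.95. Ciart, a clock repressor that was chosen after its values were seen, was at 0.848 to 2.24 TPM in LGG mice and 0.168 to 0.348 TPM in PBS mice. Nfil3, which in the mouse is high when Dbp is low, did not pass and overlapped (log2 difference -0.60, SE 0.32, adjusted p = 0.111). The hour at which each mouse was sampled is not given, and its part in these values was not tested.

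The upstream sequences of Ciart and Tef are shown because E-boxes are the sites through which the clock acts. The capitals mark the E-box CACGTG.
Ciart (chr3:95882229-95882378, minus strand): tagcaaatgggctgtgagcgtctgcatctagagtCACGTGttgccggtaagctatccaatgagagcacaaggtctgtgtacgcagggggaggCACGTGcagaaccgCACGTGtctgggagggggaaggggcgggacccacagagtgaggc
Tef (chr15:81802523-81802672, plus strand): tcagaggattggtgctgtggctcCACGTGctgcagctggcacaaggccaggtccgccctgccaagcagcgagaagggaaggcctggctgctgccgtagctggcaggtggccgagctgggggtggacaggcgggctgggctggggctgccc

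CACGTG was present in the 150 bases of 4.30% of all promoters and in 2 of the 6 listed genes of this group, Ciart with 3 and Tef with 1. Dbp, Nr1d1 and Nr1d2, which also rose, had none of these letters in this window.

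Defence and antigen presentation genes changed in part. MHC class I molecules display peptides from inside the cell to CD8 T cells. Of 16 genes tested in this list 13 rose (median 1.62), and 11 were higher than in RG. With the length and GC trend removed 9 were higher than in PBS. H2-K1, a classical class I gene, was at 1588, 1679, 2142, 1971 and 1707 TPM in LGG mice 1 to 5, against 478, 605, 328, 429.6 and 483 TPM in PBS mice 1 to 5. No LGG mouse was near the PBS range (log2 difference 1.98, SE 0.28, adjusted p = 6.61e-06), and H2-D1, H2-T3, Tapbp and Erap1 rose by 1.70, 1.79, 2.04 and 1.72. H2-Q4 rose by 1.15 against PBS and did not pass against RG (0.20, adjusted p = 0.594) nor against PBS on median-of-ratios scaling (0.32, adjusted p = 0.220). Of 10 interferon-stimulated genes 5 rose and none fell, against 54.7% and 16.5% of all genes. Irf1 was at 1.50 and the RNA sensor Ifih1 at 1.38, while Mx1 did not pass (-0.35, adjusted p = 0.241). The median of this list was 0.74, against 0.05 on the median-of-ratios scale and -0.03 on the upper-quartile scale, and 3 members were lower on each of these.

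Of 9 tested genes that the epithelium raises in response to microbes, 5 rose and 1 fell, near the shares of all genes (54.7% and 16.5%). Nos2, inducible nitric oxide synthase, was at 8.65, 2.96, 10.7, 7.01 and 7.68 TPM in LGG mice 1 to 5, against 1.12, 2.09, 1.14, 1.45 and 2.32 TPM in PBS mice 1 to 5. All LGG mice were above all PBS mice (log2 difference 1.62, SE 0.31, adjusted p = 1.29e-04), but RG mice were at 4.62 to 15.2 TPM and LGG did not pass against them (-0.35, adjusted p = 0.346). Pigr, which carries IgA into the lumen, was at 217, 298, 268, 957 and 386 TPM in LGG mice 1 to 5, against 179, 79.7, 35.2, 60.2 and 55.6 TPM in PBS mice 1 to 5. LGG mouse 4 held the highest value, and PBS mouse 1, the highest of its group, lay just below LGG mouse 1 (log2 difference 2.36, SE 0.46, adjusted p = 1.96e-04). Nlrp6, a sensor of the inflammasome family, rose by 1.80. Reg3g, a lectin that kills Gram-positive bacteria, was at 824, 547, 589, 1088 and 1649 TPM in LGG mice 1 to 5, against 708, 929.7, 637, 559 and 784 TPM in PBS mice 1 to 5. Its groups overlapped (log2 difference 0.27, SE 0.44, adjusted p = 0.580), and the sign turned with median-of-ratios scaling (-0.59) and upper-quartile scaling (-0.70). Reg3b did not pass against PBS (-0.69, adjusted p = 0.175) and was lower than in RG (-1.19, adjusted p = 0.0287). Lcn2, which withholds iron from bacteria, fell by 0.59 at 0.430 to 1.19 TPM in LGG mice and 1.36 to 1.97 TPM in PBS mice, and did not pass without LGG mice 2 and 4 and PBS mouse 1 (-0.45, adjusted p = 0.0837).

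Among rarer epithelial cells, 4 of 5 tuft cell genes rose, with the taste channel Trpm5 at 4.73 to 13.4 TPM in LGG mice and 1.22 to 2.81 TPM in PBS mice (1.53) and Siglecf at 1.42. Once the length and GC trend was taken out 1 was higher, and 1 was lower on the median-of-ratios and upper-quartile scales. All 4 serotonin genes rose. The serotonin transporter Slc6a4 was at 36.4, 53.1, 27.8, 21.9 and 32.2 TPM in LGG mice 1 to 5, against 8.25, 7.99, 5.82, 7.28 and 7.11 TPM in PBS mice 1 to 5, without overlap (log2 difference 2.04, SE 0.19, adjusted p = 2.02e-07), and Maob, which breaks down amines, and Ddc, which makes serotonin and dopamine, rose by 2.29 and 1.65. Chga, a granule protein of enteroendocrine cells, rose by 1.48, and the other 3 endocrine genes tested did not pass. Of 3 stem cell list genes 2 rose, among them the Wnt target Axin2 (1.14), which did not pass against RG (0.30, adjusted p = 0.131) and was at -0.23 against PBS with the length and GC trend removed (adjusted p = 0.224). Of 4 proliferation genes 2 rose, Mcm6 at 1.19 among them, and 1, Cks2, fell by 0.75. Over all genes 54.7% rose and 16.5% fell. On the upper-quartile scale none of the stem cell or proliferation genes was higher, against 40.8% of all genes.

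Most markers of other cells and tissues did not pass. None of 11 smooth muscle genes passed in limma (0 had an unadjusted p under 0.05), and their sum was 1258 to 2851 TPM in LGG mice and 1269 to 3809 TPM in PBS mice, highest in PBS mouse 1 and LGG mouse 3. Tagln was at -0.38 (adjusted p = 0.244), and 2 smooth muscle genes rose without LGG mice 2 and 4 and PBS mouse 1. On median-of-ratios scaling all 11 were lower. None of 13 T cell genes passed in limma (0 had an unadjusted p under 0.05), with sums of 32.96 to 100.5 TPM in LGG mice and 20.8 to 50.1 TPM in PBS mice, and Ptprc, which encodes CD45, was at 1.17 (adjusted p = 0.105). In fits with 1 mouse left out, up to 10 T cell genes were higher, without RG mouse 2. Of 6 B and plasma cell genes 1 rose, and their sum was 215 to 286 TPM in LGG mice and 122 to 364 TPM in PBS mice. The antibody joining chain Jchain did not pass (-0.84, adjusted p = 0.161). Mcpt1, a mast cell protease, was at 75.4 TPM in LGG mouse 3 and at most 1.93 TPM in the other LGG mice, against 0.407 to 6.51 TPM in PBS mice. Alb, a liver gene, was lower by the test (log2 difference -1.24, SE 0.47, adjusted p = 0.0281), with PBS mouse 1 at 556 TPM, and was at -0.78 (adjusted p = 0.0780) without that mouse and LGG mice 2 and 4. The haemoglobin gene Hbb-bs was lower by 1.94, with PBS mouse 2 at 3943 TPM. The part of these cells in the other results was not tested.

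Subunits of the same protein machine often moved in opposite directions, with the short ones mostly lower and the long ones mostly higher. Over all genes, the shortest of 4 classes of equal size by annotated transcript length (180 to 1613 bases) had a median of -0.50 with 88 genes higher and 448 lower, while the 3 longer classes had medians of 1.29, 1.31 and 1.27. Of the 52 nuclear-encoded genes of the respiratory chain, 7 rose and 32 fell, or 23 without LGG mice 2 and 4 and PBS mouse 1. When the length and GC trend was taken out 14 were higher and 12 lower, and with median-of-ratios scaling 6 and 45. The 40 with transcripts of up to 1613 bases held no gene that rose and 27 that fell, and the 12 longer ones held the 7 that rose and 5 that fell. Ndufs1, the largest subunit of complex I, was at 51.3, 48.2, 54.05, 105 and 70.9 TPM in LGG mice 1 to 5, against 23.4, 21.4, 14.3, 19.8 and 15.3 TPM in PBS mice 1 to 5, with no overlap (log2 difference 1.71, SE 0.22, adjusted p = 2.53e-06). Ndufv1 rose by 1.58, and the ATP synthase subunits Atp5a1 and Atp5b rose by 1.62 and 1.53. The 11 mitochondrially encoded genes did not pass in limma (median -0.23, 0 with an unadjusted p under 0.05), while on the median-of-ratios scale all were lower, and 10 were higher once the length and GC trend was taken out.

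Other machines split in part. In the spliceosome 9 of 23 rose and 6 fell (4 without LGG mice 2 and 4 and PBS mouse 1), with the long Prpf6 at 1.41 and the short Sm and Sm-like genes Snrpg, Snrpe and Lsm5 at -1.49, -1.26 and -1.51. The short Snrpa rose by 1.29. On the median-of-ratios scale 14 spliceosome genes were lower. Snrpg was at 113, 102, 90.7, 72.9 and 92.03 TPM in LGG mice 1 to 5, against 338, 212, 307, 230.0 and 246 TPM in PBS mice 1 to 5, and the groups did not overlap. With the length and GC trend removed Snrpe no longer passed (-0.06, adjusted p = 0.655) and Lsm5 passed in the other direction (0.53, adjusted p = 0.00626). In the proteasome Psmd1 and Psmd2 of the regulatory particle rose by 1.35 and 1.52, and the core subunits Psma3 and Psma5 fell by 0.57 and 0.61, with 2 in place of 4 members lower without LGG mice 2 and 4 and PBS mouse 1. The annotated transcript of Psma3 (2846 bases) is about as long as that of Psmd2 (2961 bases). Among translation factors Eif4g1 and Eif3b rose by 1.61 and 1.32, and Eif3h and Eif3m fell by 0.83 and 0.75, while with the length and GC trend removed none of 12 was higher and 7 were lower. In the vacuolar proton pump Atp6v0a2 rose by 1.53 and Atp6v0b fell by 0.43, a call lost without LGG mouse 4 or PBS mouse 1 (adjusted p = 0.0601 and 0.0530). Atp6v0c, also short (1183 bases), rose by 1.47, so that of 4 short members 1 rose and 1 fell.

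Ribosomal protein genes did not split. Of 76, 69 fell and none rose (median -1.06), and the 10 with annotated transcripts over 1613 bases held 8 of those that fell. Rps19, of the small subunit, was at 509, 537, 426, 356 and 421 TPM in LGG mice 1 to 5, against 1307, 905, 1354, 1262 and 1367 TPM in PBS mice 1 to 5. Every LGG mouse was below every PBS mouse (log2 difference -1.46, SE 0.15, adjusted p = 4.60e-07), and Rps13 (-1.34), Rpl10 (-0.66) and Rpl11 (-0.64) fell as well. With the length and GC trend removed 58 of 76 were lower and 1 was higher. Of 32 mitochondrial ribosome genes 18 fell and none rose, and 11 fell without LGG mice 2 and 4 and PBS mouse 1, against all 32 on the median-of-ratios scale. In contrast all 8 tRNA synthetase genes, each with a transcript over 1613 bases, rose, and 2 of them were higher after removal of the length and GC trend. The annotated length is that of a gene's longest coding transcript in GENCODE and need not be that of the one expressed.

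**Figure D4:**
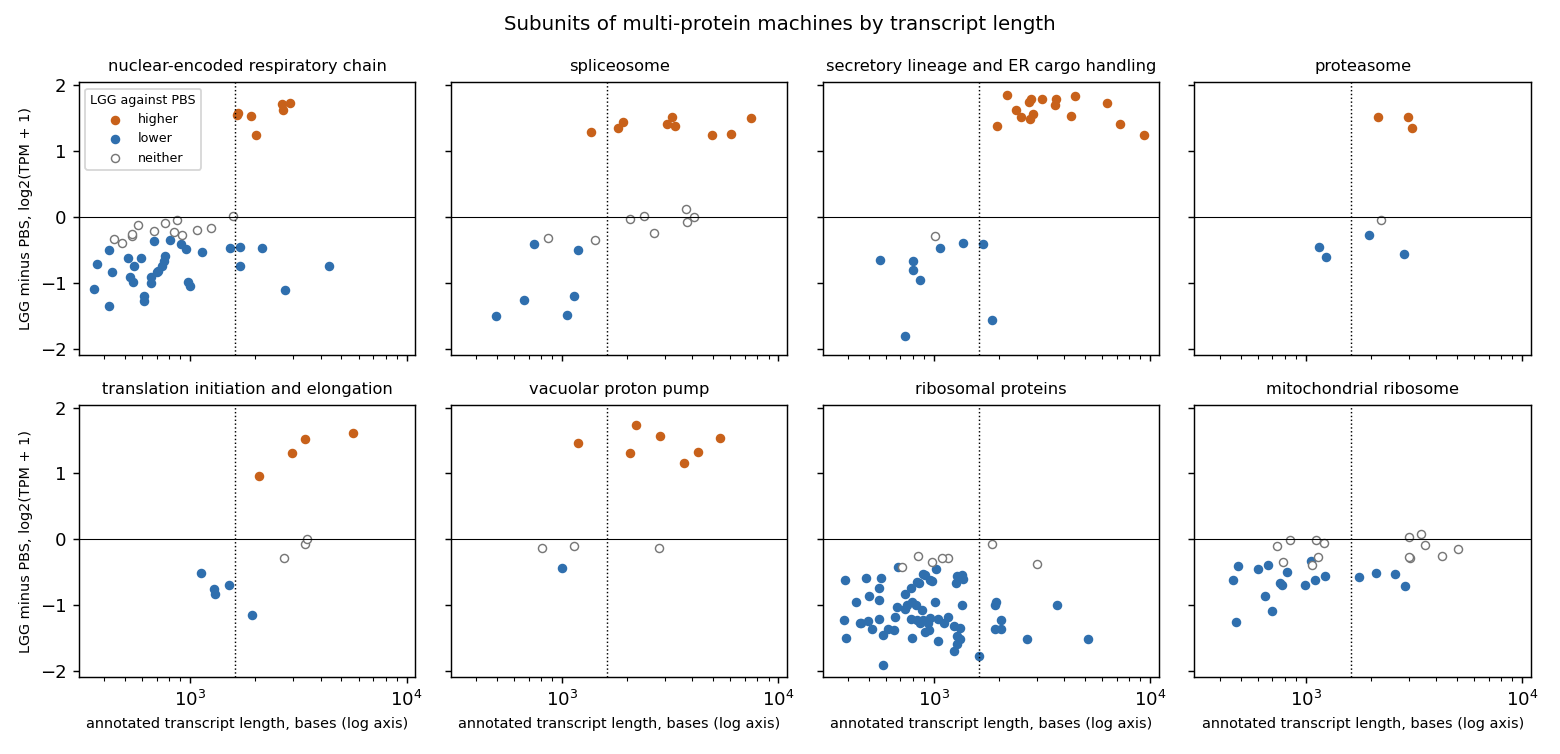
Annotated transcript length in bases on a log axis (x) and the difference LGG minus PBS on the log2(TPM + 1) scale (y) of each tested subunit in 8 machines, coloured by call, with the upper bound of the shortest class of genes (1613 bases) dotted. In the respiratory chain all 7 genes that rose lie right of the dotted line, while ribosomal proteins lie below 0 on both sides of it.

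LGG mice also differed among themselves in genes that separated them from PBS mice. LGG mouse 2 was the highest LGG mouse in Lct, Plb1, Asah2, Ace, Enpp7, Lyz1 and Defa23, and LGG mouse 4 was the lowest in each of these. LGG mouse 4 was instead the highest in the large-intestinal genes. Car1, a carbonic anhydrase of the colon, was at 22.04, 12.1, 392, 25134 and 2549 TPM in LGG mice 1 to 5, against 620.2, 35.4, 238, 377 and 2.38 TPM in PBS mice 1 to 5, and did not pass (log2 difference 2.02, SE 2.34, adjusted p = 0.448). Aqp8, a water channel, was at 0.808, 0.740, 5.41, 283 and 19.7 TPM in LGG mice 1 to 5, against 10.4, 1.40, 2.54, 4.01 and 0.550 TPM in PBS mice 1 to 5, and did not pass either (log2 difference 1.46, SE 1.12, adjusted p = 0.255). In both genes LGG mice 1 and 2 lay below most PBS mice. Of 14 colon list genes 10 rose, and 10 rose without LGG mice 2 and 4 and PBS mouse 1, 6 on the upper-quartile scale and 5 after removal of the length and GC trend. Slc26a3, the chloride exchanger lost in congenital chloride diarrhoea, was at 65.8, 70.7, 64.2, 418 and 99.5 TPM in LGG mice 1 to 5, against 32.3, 26.1, 18.3, 25.3 and 20.5 TPM in PBS mice 1 to 5, and LGG mice other than mouse 4 were still above all PBS mice (log2 difference 2.08, SE 0.40, adjusted p = 1.82e-04). Slc9a3, Car4 and the phosphate transporter Slc20a1, which was chosen after its values were seen, rose by 2.56, 1.72 and 1.74, and Sycn did not pass (1.20, adjusted p = 0.204).

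The list of genes of the upper small intestine had 4 of 6 higher and 1 lower. Its sum was 1391, 2754, 1281, 659 and 1000.4 TPM in LGG mice 1 to 5, against 354, 514, 295, 278 and 311 TPM in PBS mice 1 to 5, without overlap. The one that was lower was S100g, the calcium-binding protein calbindin-D9k (-1.42), whose groups overlapped and whose call was lost without LGG mice 2 and 4 and PBS mouse 1 (adjusted p = 0.0692). The colon list summed to 3057, 3180.4, 4559, 31835 and 5904 TPM in LGG mice 1 to 5, against 2063, 1286, 998, 1478 and 1148 TPM in PBS mice 1 to 5. Both sums were thus above those of PBS mice in every LGG mouse, although single genes differed. All LGG mice were above all PBS mice in 3 of 6 genes of the upper small intestine and 7 of 14 of the colon list. These counts were near the share of all genes, 53.0%. LGG mice held the highest sum in mouse 2 for the upper and in mouse 4 for the large intestine, as in the plot of 15 genes by mouse.

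**Figure D5:**
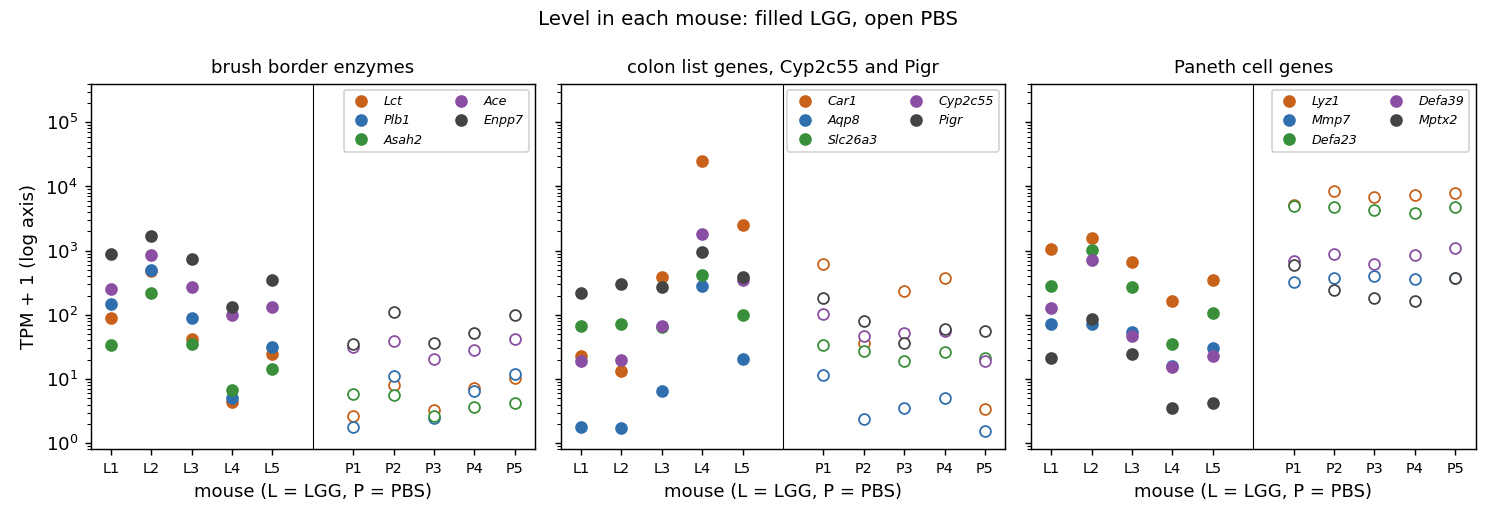
TPM + 1 on a log axis (y) in LGG mice 1 to 5 (L1 to L5, filled) and PBS mice 1 to 5 (P1 to P5, open) for brush border enzymes (left), colon list genes with Cyp2c55 and Pigr (middle) and Paneth cell genes (right). LGG mouse 4 is the lowest LGG mouse for the brush border and Paneth cell genes shown and the highest for the 5 genes in the middle.

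LGG also differed from RG, in 61.6% of genes. Of all genes tested, 1887 were higher in LGG than in RG and 289 lower, with a median of 0.72. The alpha-defensins had a median of -4.00 for LGG minus RG, against -3.93 for LGG minus PBS, and the 2 comparisons share the LGG mice. Genes for sugar, peptide and lipid digestion had medians of 1.54, 1.39 and 1.31. The exceptions among genes named here, which passed against PBS and not against RG, included Nos2, Pigr, Lct, Plb1, Fam151a, Axin2, Mcm6, H2-Q4 and Cyp3a11, and for each of them that miss does not show that LGG and RG acted alike.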

How the data were processed

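Ileal total RNA (RNeasy Plus universal kit, NEBNext Ultra II libraries) gave 15 libraries, 5 each from LGG, RG and PBS mice, per the labels' protocols. The authors deposited 1 table of TPM values for 4178 genes. The submitters' processing notes name the GRCm38 and mm10 builds, while the aligner, counting tool, strand setting, gene annotation and the rule by which genes were listed were not given in the sources used here. TPM keeps no read depth, so depth and counting error are unknown. TPM are shares of a library, so a fall of abundant transcripts raises the values of all others.

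Values were transformed as log2(TPM + 1) and fitted with limma 3.58.1 in R 4.3.3, with trend and robust shrinkage, over all 15 libraries and 3 groups, with Benjamini-Hochberg adjustment at 0.05 over all 3530 genes. The fit was also run on simulated data in which few genes changed, in both directions. That run does not test the fit where most genes change, as here. The members and gene lists were chosen with earlier results of these data known, so counts over lists are descriptions. Genes named are the 12 largest changes in each direction at 5 TPM or more in the higher group, 4 of smallest p and the first 4 of each list, list members that go the other way, and any marker of another tissue; some genes this rule names are not reported here. Mptx1, Copz2, Defa38, Defa39, Defa42, Defa43, S100a6, Sec61a1, Ciart, Calml4 and Slc20a1 fall outside this rule and were chosen after their values were seen. The listed share of TPM, a percent, was tested by an exact permutation of the mice. Coordinates, transcript length and GC content came from GENCODE release M21 (4173 of the 4178 IDs matched) and promoters from RefSeq. Overlapping and antisense genes and near-identical copies are uncertain. Alternatives covered scaling, pseudocount (0.1), filters, libraries in the fit, variance model, the length and GC trend, a replicate block and leaving out mice.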

Additional observations from a re-analysis of the deposited data

Results flagged for a closer look

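In 344 groups of 5 mice, made of 172 genes and shares in LGG and in PBS, 50 held a mouse whose distance to its nearest neighbour took an unusually large part of the group's range. The threshold passes about 1 in 20 such groups of normal values, but these are raw TPM of genes that were in part chosen after their values were seen, so 50 of 344 cannot be set against that share. LGG mouse 4 accounted for 15 of these, LGG mouse 2 for 13 and PBS mouse 1 for 11, and the rest were spread over 5 mice. The range of the other 4 mice of the group follows each value.

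LGG mouse 4 lay above the other 4 LGG mice in Cyp2c55 at 1836 TPM (17.9 to 346), Cdh1 at 471 TPM (293 to 329), Gucy2c at 217 TPM (131 to 145), Pigr at 957 TPM (217 to 386) and Slc26a3 at 418 TPM (64.2 to 99.5). Its solute carriers and other large-intestinal genes were high too, with Car4 at 518 TPM (211 to 267), Slc20a1 at 209.6 TPM (10.4 to 22.6), Sycn at 156 TPM (2.57 to 20.5), Car1 at 25134 TPM (12.1 to 2549) and Aqp8 at 283 TPM (0.740 to 19.7). Translation and energy genes of this mouse included Eif3b at 115 TPM (60.2 to 70.9), Eif4g1 at 137 TPM (54.3 to 72.3) and Atp5a1 at 1299 TPM (692 to 858). LGG mouse 4 lay below the other 4 LGG mice in Sis at 349 TPM (688 to 759) and Nr1d2 at 25.6 TPM (35.9 to 39.7). LGG mouse 2 lay above the other 4 LGG mice in Mptx2 at 84.8 TPM (2.57 to 23.5), Defa3 at 239 TPM (16.4 to 79.9), Defa23 at 1033 TPM (33.7 to 282), Defa39 at 725 TPM (14.6 to 127) and Defa41 at 53.0 TPM (3.43 to 15.9). Among digestive genes this mouse had Lct at 489 TPM (3.32 to 87.5), Slc5a4a at 166 TPM (18.8 to 59.4), Ace at 865 TPM (99.5 to 267), Plb1 at 500.1 TPM (4.00 to 145) and Asah2 at 215 TPM (5.82 to 34.5). Among metabolic genes it had Cyp2d26 at 496 TPM (298 to 333), Adh1 at 165 TPM (46.6 to 63.6) and Maob at 187 TPM (57.3 to 67.5). 

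LGG mouse 3 lay above the other 4 LGG mice in Mcpt1 at 75.4 TPM (1.03 to 1.93). LGG mouse 5 lay above the other 4 LGG mice in Axin2 at 18.5 TPM (14.7 to 15.03). PBS mouse 1 lay above the other 4 PBS mice in Ang4 at 4409 TPM (974 to 1235), Mptx1 at 135 TPM (39.3 to 57.8), Defa27 at 175 TPM (65.3 to 86.6), Spink4 at 6487 TPM (2538 to 3555) and S100a6 at 599.7 TPM (261 to 334). PBS mouse 1 was also above the others in Fkbp11 at 38.3 TPM (15.1 to 21.4), Car4 at 214 TPM (56.8 to 89.7), Mcpt1 at 6.51 TPM (0.407 to 1.01), Tagln at 1306 TPM (434 to 626) and Alb at 556 TPM (56.7 to 157). It had the antibody gene Jchain at 286 TPM (46.9 to 88.1). PBS mouse 2 lay above the other 4 PBS mice in Ces2a at 78.8 TPM (23.4 to 31.3) and Hbb-bs at 3943 TPM (341 to 1172). PBS mouse 2 lay below the other 4 PBS mice in Rps19 at 905 TPM (1262 to 1367). PBS mouse 3 lay below the other 4 PBS mice in Pkp3 at 19.9 TPM (25.4 to 27.6), Nlrp6 at 18.3 TPM (24.9 to 26.6) and H2-Q4 at 12.3 TPM (16.6 to 17.9). PBS mouse 4 lay above the other 4 PBS mice in Defa31 at 56.5 TPM (listed at 0 in the others) and Slc2a5 at 28.0 TPM (3.94 to 9.34). The listed genes took 58.6% of all TPM in PBS mouse 2, below the 64.1 to 65.5% of the other PBS mice.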

How the results depend on the processing

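On the median-of-ratios and upper-quartile scales 1391 and 1387 genes were lower in LGG than in PBS, against 582, and once the length and GC trend was taken out 962 were higher, against 1932. Without LGG mice 2 and 4 and PBS mouse 1, a setting chosen after seeing the data, 353 genes were lower than in PBS and 158 lower than in RG. Against RG the genes higher in LGG numbered 609 without the length and GC trend, 1056 on the median-of-ratios scale and 498 on the upper-quartile scale, and the genes lower 648, 1088 and 1250, against 1887 and 289. Leaving out 1 mouse gave 1923 to 1985 genes higher and 487 to 668 lower than in PBS, 1807 to 1906 higher and 209 to 415 lower than in RG, and a difference in the listed share of TPM between -15.0 and -13.2 points. The fit on LGG and PBS libraries alone gave 1974 genes higher and 709 lower than in PBS, and no value for LGG minus RG.

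Of 171 named genes 156 passed, of which 149 kept call and sign whenever mice were left out, and 7 lost the call at least once. Without the length and GC trend 32 of the 156 kept their sign and no longer passed, and 7 others changed sign. On the median-of-ratios scale 5 no longer passed, 13 on the upper-quartile scale, and 6 in the fit on LGG and PBS libraries alone. Signs changed without the length and GC trend for Mptx1 (0.0815), Sec61b (0.10), Srebf2 (-0.11), Rara (-0.24), Calml4 (0.0747), Reg3b (0.0006), Axin2 (-0.23), Cks2 (0.13), Eif3b (-0.0756) and Lsm5 (0.53). They changed for Reg3g with median-of-ratios (-0.59) and upper-quartile scaling (-0.70), and for Tagln without the 3 mice (0.17). The cause of these changes was not tested.

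With the mouse number as a replicate block 1931 genes were higher and 526 lower in LGG than in PBS, and of the named genes only Defa43 lost its call (-1.26, adjusted p = 0.0537). Deviations of mice with the same number correlated between -0.455 and 0.288 over 5 pairs, and 1 of 5 LGG mice matched its own number best. These values gave no sign of pairing by number, but 5 pairs are too few to decide whether the numbers pair the mice. Depth is unknown, so counting error could not be set against the spread between mice.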

Other observations

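Genes of lysosomes and autophagy, which break down material taken up or made by the cell, rose in 12 of 13 tested members (median 1.56), against 54.7% of all genes. In each of these 12 every LGG mouse was above every PBS mouse, as in 53.0% of all genes. With the length and GC trend removed 5 of them passed, where 27.3% of all genes were higher. Of 4 genes of enteric neurons and glia 2 rose. Tubb3, a tubulin of neurons, was at 3.10, 2.43, 4.40, 7.06 and 5.92 TPM in LGG mice 1 to 5, against 2.12, 0.672, 0.847, 1.24 and 0.915 TPM in PBS mice 1 to 5. LGG mouse 4 was the highest, and the groups did not overlap (log2 difference 1.33, SE 0.28, adjusted p = 3.18e-04). Of 3 MHC class II genes 1 passed, and between 0 and 3 did when 1 mouse was left out. Of 5 red blood cell genes 2 fell, and 1 of 6 liver and kidney genes, with between 0 and 6 when 1 mouse was left out, the most without PBS mouse 4. Of 5 immediate early and heat shock genes 2 rose and 1 fell, against 54.7% and 16.5% of all genes.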
